A study of Mus musculus with 13 samples.

Results

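Transcripts of 10 secreted milk proteins and milk fat globule proteins were followed in mouse mammary gland: Lalba, Glycam1, Csn3, Csn1s2a, Wfdc18, Mfge8, Btn1a1, Xdh, Cel and Lpo. The genes were chosen by symbol for their known place in milk, with earlier results of these data known. All 10 were found among the 23951 symbols of both deposited tables. Whole gland was taken from females with a conditional deletion of Jak1, the Janus kinase that serves many cytokine receptors, and from wildtype controls. Day 7 of lactation was sampled in 3 controls and 3 knockouts. Day 2 of involution, the regression of the gland after milk removal stops, was sampled in 3 controls and 4 knockouts. The labels give no Cre driver for the deletion, no strain and no age. Libraries are named by genotype and, as in the labels, by Jak1_ and a mouse number. The 13 libraries carried 11 mouse numbers, because control Jak1_43768 and knockout Jak1_43767 stood at both stages, while the labels count every library as an animal of its own.

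Milk is made by luminal alveolar cells under prolactin, whose receptor acts through JAK2 and STAT5. Caseins and whey proteins leave these cells by secretory vesicles, whereas lipid droplets leave wrapped in apical membrane, with butyrophilin and xanthine dehydrogenase in the inner coat and MFG-E8 on the outer face. When milk removal stops, cytokine receptors that act through JAK1 and STAT3 take part in the switch to cell death and tissue remodelling.

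Among members with values above 0, upstream sequences are shown for the one with the highest mean at lactation, Glycam1, for the one with the highest mean in the involuting knockout glands, Wfdc18, and for the one with the lowest levels, Lpo. Each sequence is the 250 bases before the RefSeq start in GRCm38.p6, read 5′ to 3′ on the gene's strand, and capitals mark TTCNNNGAA, the letters of the half-sites that STAT factors bind. RefSeq windows were available for 7 of the 10 genes. The windows were Glycam1 at chr15:103565082-103565331 on the minus strand, Wfdc18 at chr11:83708754-83709003 on the plus strand and Lpo at chr11:87826115-87826364 on the minus strand.
Glycam1: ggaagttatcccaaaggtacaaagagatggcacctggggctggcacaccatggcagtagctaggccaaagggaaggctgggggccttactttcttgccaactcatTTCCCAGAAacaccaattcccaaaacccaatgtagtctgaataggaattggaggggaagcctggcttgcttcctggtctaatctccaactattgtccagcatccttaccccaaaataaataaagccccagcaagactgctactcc
Wfdc18: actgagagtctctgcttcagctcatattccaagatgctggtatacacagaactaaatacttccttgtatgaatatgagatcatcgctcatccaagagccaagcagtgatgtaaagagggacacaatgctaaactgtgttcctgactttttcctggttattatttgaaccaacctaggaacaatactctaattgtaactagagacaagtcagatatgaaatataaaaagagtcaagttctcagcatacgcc
Lpo: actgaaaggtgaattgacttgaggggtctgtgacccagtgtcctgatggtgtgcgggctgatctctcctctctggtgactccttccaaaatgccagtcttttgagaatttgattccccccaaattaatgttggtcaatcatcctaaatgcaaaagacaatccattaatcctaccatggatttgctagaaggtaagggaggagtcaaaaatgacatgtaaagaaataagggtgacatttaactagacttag
TTCNNNGAA reads the same on both strands. Over the full window, which also takes in 50 bases after the start, it was found in Glycam1 and Csn1s2a and not in Lalba, Wfdc18, Mfge8, Cel or Lpo. The Glycam1 match began 145 bases before the start. The Csn1s2a match lay 20 bases after the listed start, in ttatagtgctTTCTTAGAAttacaatgac, and no GENCODE coding transcript of that gene began within the window. No GENCODE coding transcript of Cel began within its window either. Of 32851 RefSeq windows of this length, 8.30% held TTCNNNGAA. The same half-sites set 4 bases apart were in none of the 7 windows and in 6.95% of all windows. These are matches of letters in a window and say nothing of binding.

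The values are FPKM, fragments counted per length of transcript and per size of library, so levels can be set between genes. The whole-gland libraries held all 12 luminal epithelial markers of the list used, none at 0 throughout a group. Jak1 itself was at 6.18 to 14.2 FPKM in the lactating controls and 9.51 to 11.2 in the lactating knockouts, and at 24.0 to 24.6 and 17.3 to 26.3 at involution. These ranges overlapped at lactation and at involution (adjusted p = 0.999 and 0.989, limma), and since the deleted part of the gene is not given, the gene-level value does not check the genotype labels. Summed FPKM per library ran from 312976 to 1367560, and read depth is not given. One library stood apart, lactating control Jak1_44175, in which genes with transcripts under 1000 bases were raised against genes with transcripts over 3000 bases by 0.95 on the log2 scale, against −0.34 to 0.13 in the other lactation libraries.

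Among members with values above 0, secreted whey and mucin genes had the highest levels at lactation. Glycam1, a mucin-like glycoprotein of milk, stood at 28734, 60238 and 106080 FPKM in lactating controls Jak1_42186, Jak1_43768 and Jak1_44175, and at 41735, 42234 and 58235 FPKM in lactating knockouts Jak1_44174, Jak1_42734 and Jak1_43767. It was the highest or second highest gene of every lactation library by listed values, with the caseins and Wap listed at 0. At involution it stood at 1759, 3972 and 21776 FPKM in controls Jak1_44448, Jak1_43768 and Jak1_43914, and at 6080, 2636, 21725 and 8667 FPKM in knockouts Jak1_43196, Jak1_43767, Jak1_44176 and Jak1_44440. The libraries follow in this order below. All 7 involution values lay under all 6 lactation values, and at involution the highest library stood 12.4-fold above the lowest in controls and 8.24-fold in knockouts.

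Lalba, the alpha-lactalbumin that turns galactosyltransferase into lactose synthase, was at 5949, 13675 and 24707 FPKM in the lactating controls and 7529, 8903 and 11127 FPKM in the lactating knockouts. In the involuting controls it was at 4808, 11186 and 18392 FPKM, and in the involuting knockouts at 15128, 5482, 17265 and 9413 FPKM. The stages and the genotypes overlapped. Wfdc18, a secreted protein of the whey acidic protein fold family, was at 10519, 6921 and 22631 FPKM in the lactating controls and 9719, 11680 and 7609 FPKM in the lactating knockouts. Its involution values were 14171, 34377 and 74332 FPKM in controls and 46037, 24958, 50375 and 60025 FPKM in knockouts. It was the first or second gene of every involuting knockout library and ranked between 2 and 4 in the involuting controls. Csn1s2a also ranked between 2 and 4 in these controls, above Wfdc18 in Jak1_44448, but was listed at 0 in the knockouts. These ranks are therefore not compared between genotypes.

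The caseins could be read only in part. Csn3, kappa-casein, which caps casein micelles, was listed at 0 in all 6 lactation libraries. The involuting controls had 7258, 10444 and 15123 FPKM of Csn3 and the involuting knockouts 10406, 5385, 7142 and 2466 FPKM, so the genotypes overlapped. Csn1s2a, an alpha-S2 casein, was likewise listed at 0 in all 6 lactation libraries, then at 30710, 20351 and 41984 FPKM in the involuting controls and at 0 in all 4 involuting knockouts. The other 3 caseins Csn1s1, Csn1s2b and Csn2, together with whey acidic protein Wap, were listed at 0 in all 13 libraries. An exact 0 for a casein in these glands can be a missing estimate, so the zeros of Csn3 and Csn1s2a are given as listed and no difference is drawn from them.

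In FPKM, Cel and Lpo, enzymes secreted into milk, were lower in every involution library than in any lactation library. How many of all genes separate in this way was not computed. Cel, the bile salt-stimulated lipase, was at 579, 615 and 435 FPKM in the lactating controls and 480, 767 and 603 FPKM in the lactating knockouts. The involuting controls had 171, 120 and 298 FPKM of Cel and the involuting knockouts 125, 58.0, 164 and 52.9 FPKM. Lpo, lactoperoxidase, an antimicrobial peroxidase of milk, was at 23.9, 16.2 and 10.4 FPKM in the lactating controls and 40.6, 26.4 and 15.1 FPKM in the lactating knockouts. In the involuting controls Lpo was at 2.68, 4.01 and 4.42 FPKM, and in the involuting knockouts at 2.20, 1.35, 2.29 and 0.673 FPKM. Every involuting knockout lay below every involuting control for Lpo, and the lowest knockout was under the 1 FPKM used as the filter.

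Fat globule coat genes were expressed in all 13 libraries. Mfge8, whose product bridges phosphatidylserine and integrins, was at 1801, 1503 and 974 FPKM in the lactating controls and 1342, 1068 and 1303 FPKM in the lactating knockouts, then at 6166, 7415 and 3726 FPKM in the involuting controls and 6187, 3831, 4038 and 3642 FPKM in the involuting knockouts. Btn1a1, butyrophilin, was at 552, 822 and 430 FPKM in the lactating controls and 485, 584 and 581 FPKM in the lactating knockouts, and at 431, 655 and 506 FPKM in the involuting controls and 440, 621, 397.0 and 364 FPKM in the involuting knockouts. Xdh, xanthine dehydrogenase, which butyrophilin binds in the droplet coat, was at 354, 429 and 295 FPKM in the lactating controls and 170, 301 and 314 FPKM in the lactating knockouts. Its involution values were 234, 272 and 190 FPKM in controls and 166, 212, 136 and 174 FPKM in knockouts. In FPKM the stages did not overlap for Mfge8 and did for Btn1a1.

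**Figure D1:**
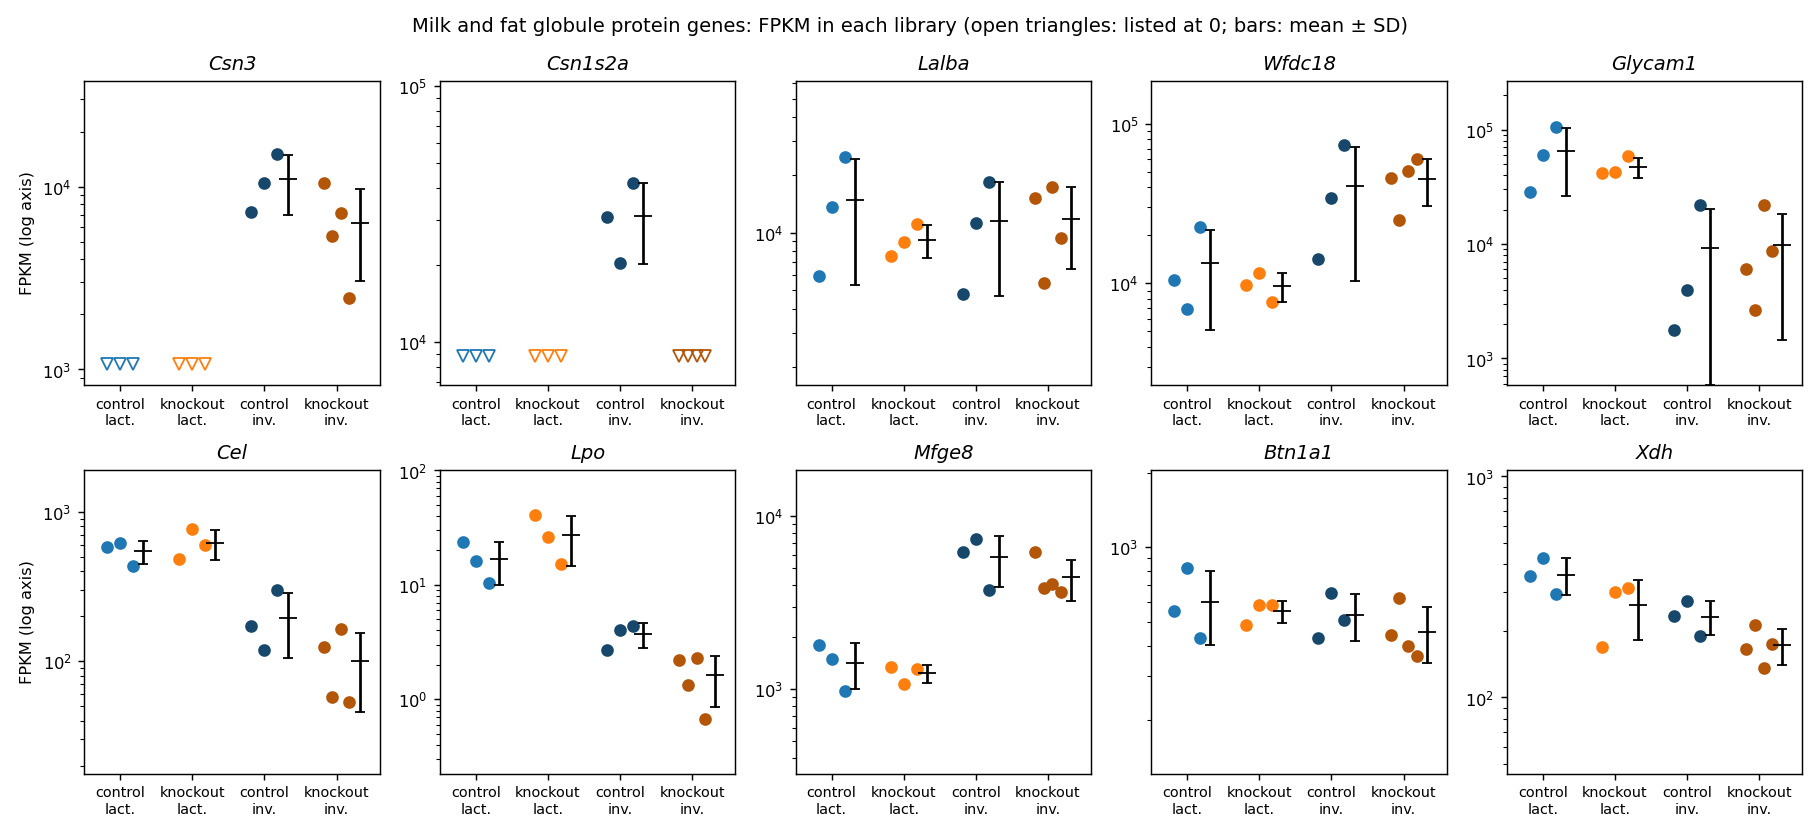
FPKM of each gene on a log axis, with 1 point per library, by genotype and stage (lact., day 7 of lactation; inv., day 2 of involution); horizontal marks and bars show the mean ± SD and open triangles mark libraries listed at 0. Glycam1, Cel and Lpo sit lower at involution in every library, while Lalba and Btn1a1 overlap across the stages in FPKM, though not Btn1a1, nor Lalba in knockouts, once each library is divided by its upper quartile.

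Stage levels came from separate tables, and the upper quartile of FPKM was 3.06 to 3.21 in the lactation table and 8.61 to 9.07 in the involution table, so the stages were set side by side without a test. In FPKM, the involution mean of Glycam1 was 7.09-fold lower than the lactation mean in controls and 4.85-fold lower in knockouts. The Cel mean was 2.77-fold lower in controls and 6.17-fold lower in knockouts, and the Lpo mean 4.54-fold and 16.8-fold lower. When each library was divided by its upper quartile, Glycam1, Cel and Lpo were again lower without overlap in both genotypes. On that scale Btn1a1 was lower without overlap as well, by 3.21-fold in controls and 3.44-fold in knockouts, and Xdh by 4.39-fold and 4.34-fold. Lalba was 3.68-fold lower in controls, with overlap, and 2.20-fold lower in knockouts, without. Mfge8 means were 4.05-fold higher at involution in controls and 3.58-fold higher in knockouts, but relative to the upper quartile the ratios were 1.43 and 1.26 and the stages overlapped. Wfdc18 was 3.07-fold and 4.69-fold higher in FPKM, and 1.07-fold and 1.64-fold relative to the upper quartile, where the stages overlapped. The share of all genes that separate between the stages was not computed. How unusual these separations are among all genes is therefore not known.

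The mix among the 8 genes above 0 in all 13 libraries does not depend on how a table was scaled. Glycam1 made up 66.3% ± 6.36 (SD, n = 3) of their summed FPKM in lactating controls and 68.4% ± 4.31 (n = 3) in lactating knockouts, against 10.5% ± 6.74 (n = 3) and 12.2% ± 7.41 (n = 4) at involution. Wfdc18 differed the other way, with 14.8% ± 6.74 and 14.4% ± 4.32 at lactation against 57.6% ± 5.82 and 63.6% ± 8.08 at involution. No involution library reached the lowest lactation share of Glycam1, 59.2%, the highest being 23.1%. The lowest involution share of Wfdc18 was 51.1%, above the highest lactation share, 21.7%. Lalba held close shares at both stages, with means of 14.8% and 13.3% at lactation and 17.3% and 16.2% at involution. Mfge8 averaged 2.04% and 1.81% at lactation and 12.7% ± 9.55 and 6.80% ± 2.91 at involution. Measured as the log2 ratio to the geometric mean of the 8 genes, Mfge8 held −0.67 to 0.46 in the lactation libraries and 1.42 to 3.23 in the involution libraries. On the same scale Lpo held −7.22 to −4.96 and −9.96 to −7.93, and Cel −1.83 to −0.89 and −3.66 to −1.94, with no overlap for any of these genes. The geometric mean moves with the 8 genes themselves, so these ratios place a gene only among the 8. Relative to the upper quartile the Mfge8 stages overlapped.

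**Figure D2:**
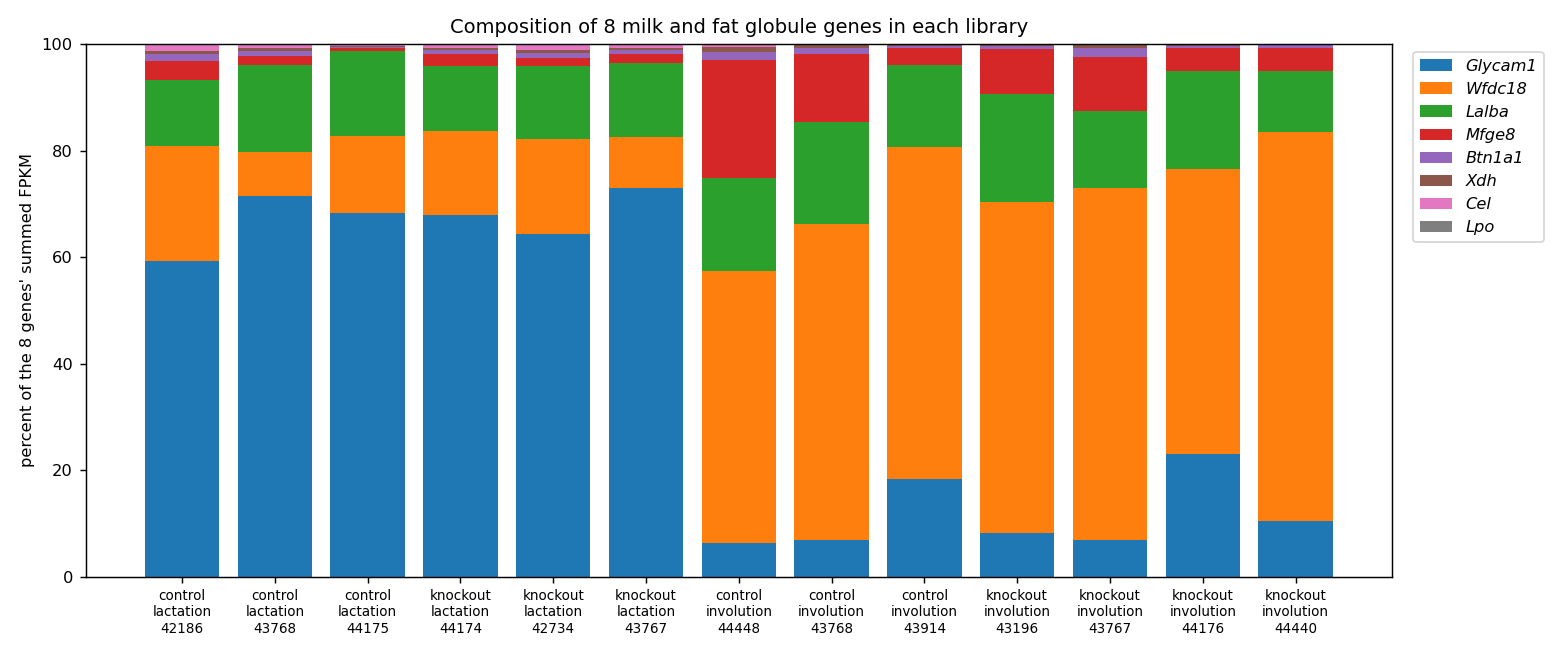
Percent of the summed FPKM of 8 genes taken by each gene, with 1 bar per library, labelled by genotype, stage and mouse number. Glycam1 takes 59.2% or more of every lactation bar, and Wfdc18 takes 51.1% or more of every involution bar, in both genotypes.

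At lactation no milk or fat globule gene passed the test between knockout and control. The comparison used limma on log2(rescaled FPKM + 1) across 9560 genes with Benjamini-Hochberg adjustment. Of the 10 genes, 8 were tested and 0 passed the adjusted threshold of 0.05, against 0.0105% of all genes tested, and 0 passed an unadjusted 0.05, against 2.38%. For none did every knockout lie below every control (background 3.17%) or above it (2.89%). The largest log2 difference was that of Lpo, 0.70 ± 0.43 (SE), with group means of 27.4 ± 12.8 FPKM in knockouts and 16.8 ± 6.74 FPKM in controls (SD, n = 3 each), an adjusted p of 0.998 and a 95% interval of −0.30 to 1.69. It was 0.36 without control Jak1_44175, 0.38 without knockout Jak1_44174 and 0.38 with array weights. Xdh and Lalba differed by −0.42 ± 0.37 and −0.41 ± 0.62, Wfdc18 by −0.24 ± 0.57, Glycam1 by −0.21 ± 0.72 and Cel by 0.24 ± 0.35. Mfge8 and Btn1a1 stood at −0.10 ± 0.41 and −0.02 ± 0.37, with 95% intervals of −1.04 to 0.84 and −0.87 to 0.84. The median over the 8 genes was −0.16, with 6 of 8 negative, beside 0.01 over all genes tested. It was positive under quantile normalization (0.21), under scaling by the total outside milk proteins (0.059) and without control Jak1_44175 (0.026). Under quantile normalization Wfdc18, Mfge8 and Btn1a1 turned positive (0.36, 0.23 and 0.19), and under scaling by the total outside milk proteins Mfge8, Btn1a1 and Glycam1 did (0.12, 0.20 and 0.0026). Without control Jak1_44175 the differences of Lalba, Wfdc18 and Glycam1 turned to 0.02, 0.17 and 0.18, and that of Cel came to 0.03, while Xdh, at −0.61, was then the largest.

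At involution the gland showed lower group means of Csn3, Mfge8, Btn1a1, Xdh, Cel and Lpo in knockouts, none past the adjusted threshold. Of the 9 genes with values in both genotypes, 0 passed by limma, against a background of 0.0719% of 12509 genes, and 1 passed an unadjusted 0.05, against 6.84%. Csn1s2a, above 0 in 3 of 3 controls and listed at 0 in 4 of 4 knockouts, passed the filter through the controls alone. Its zeros may be missing estimates, so no test of it is given.

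Lpo averaged 3.70 ± 0.909 FPKM in involuting controls (SD, n = 3) and 1.63 ± 0.764 FPKM in involuting knockouts (SD, n = 4). The log2 difference was −0.85 ± 0.27 with a 95% interval of −1.47 to −0.24, an unadjusted p of 0.0123 and an adjusted p of 0.554 by limma, with 4 of 4 knockouts below every control. Lpo was the 1 of these 9 genes whose knockouts all lay below all controls, against 4.42% of all genes, and 0 lay above, against 2.67%. It was also the 1 that passed an unadjusted 0.05. Cel averaged 196 ± 91.7 FPKM in controls and 99.98 ± 53.9 FPKM in knockouts, with a log2 difference of −1.002 ± 0.47 and overlapping groups (adjusted p = 0.787, limma).

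Csn3 averaged 10942 ± 3956 FPKM in controls and 6350 ± 3321 FPKM in knockouts, a log2 difference of −0.88 ± 0.52 with a 95% interval of −2.08 to 0.33. Over the alternatives the Csn3 difference spanned −1.17 to −0.48, the smallest without knockout Jak1_44440, and it was −0.52 under quantile normalization. Among coat genes, Xdh differed by −0.41 ± 0.22, with a 95% interval of −0.92 to 0.10, close in size to its lactation value. Mfge8 and Btn1a1 differed by −0.33 ± 0.35 and −0.20 ± 0.26, with spans over the alternatives of −0.63 to −0.13 and −0.36 to −0.045, both smallest without control Jak1_43768. The short secreted genes had positive differences of 0.14 ± 0.57 for Lalba, 0.41 ± 0.62 for Wfdc18 and 0.50 ± 0.95 for Glycam1, each smaller than its standard error. Without control Jak1_44448, which held the lowest value of all 3, they were −0.37, −0.18 and −0.28. The median over the 9 genes was −0.33, with 6 negative, beside a median of 0.009 over all genes tested, of which 48.2% were negative.

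**Figure D3:**
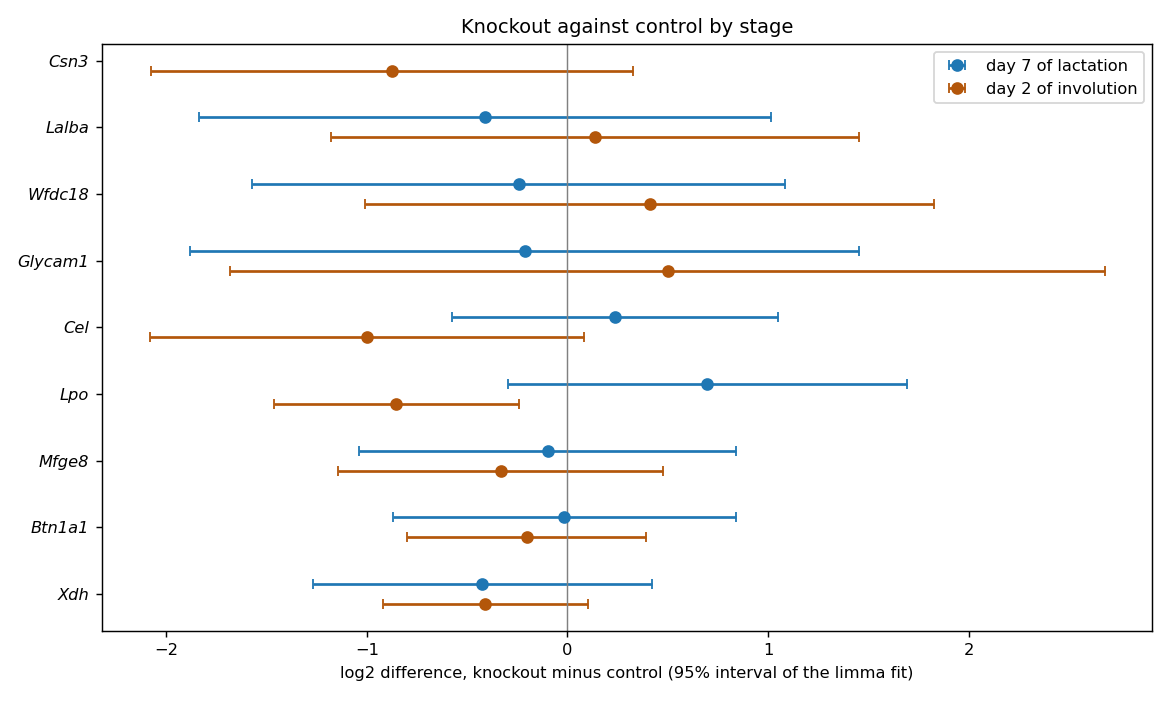
Log2 difference of knockout from control for each gene, with points for the limma estimate and bars for its 95% interval, at day 7 of lactation and day 2 of involution; Csn1s2a is not drawn because it was listed at 0 in a whole group. Only the involution interval of Lpo, −1.47 to −0.24, stays clear of 0 among the intervals drawn, and Lpo does not pass after adjustment.

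The question whether knockout and control differed by another amount at involution than at lactation was put to a fit of all 13 libraries. Among the 8 genes with values at both stages, 0 passed, against 0.0789% of 12667 genes, and 1 passed an unadjusted 0.05, against 3.35%. That gene was Lpo, whose knockout difference was lower at involution by −1.55 ± 0.53 on the log2 scale (95% interval −2.70 to −0.40, unadjusted p = 0.0124, adjusted p = 0.999, limma). Cel had the next largest value, −1.24 ± 0.62, with an interval of −2.58 to 0.10. The Xdh value was 0.02 ± 0.41, and that of Btn1a1 by −0.19 ± 0.43. For Lalba, Glycam1 and Wfdc18 the values were 0.55 ± 0.85, 0.71 ± 1.23 and 0.65 ± 0.85, so differences of more than 2-fold in either direction lay within their intervals.

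Lalba and Glycam1 varied together from library to library. Over the 13 libraries, with log2 values centred on each table's mean, Lalba and Glycam1 gave Pearson's r = 0.862 (permutation p = 0.00031, adjusted 0.0112) and Spearman's rho = 0.874 (permutation p = 0.00053, adjusted 0.0191). Their r was 0.983 within the lactation table, 0.882 within the involution table and 0.822 without the 2 libraries farthest from the median. It was the 1 pair of 36 computed that passed after adjustment. Wfdc18, the other short secreted gene, gave r = 0.697 with Lalba and 0.777 with Glycam1 (permutation p adjusted to 0.102 and 0.0618), and 0.390 and 0.348 within the lactation table. Csn3 and Lpo, over the 7 involution libraries, gave r = 0.927 (permutation p adjusted to 0.0583) and rho = 0.786 (adjusted 0.215). The coat pair Btn1a1 and Xdh gave r = 0.689 (permutation p adjusted to 0.104). Libraries share their depth and RNA quality across genes, so these are descriptions of the libraries.

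Transcript length separated the genes in the library that stood apart. Lalba, Glycam1 and Wfdc18 have longest coding transcripts of 771, 641 and 521 bases, against 2125, 3423, 4600, 2063 and 2926 bases for Mfge8, Btn1a1, Xdh, Cel and Lpo. Control Jak1_44175, with short transcripts raised by 0.95, had the highest Lalba, Glycam1 and Wfdc18 and the lowest Mfge8, Btn1a1, Cel and Lpo of the 6 lactation libraries. At involution the same measure ran from −0.22 in knockout Jak1_43767 to 0.38 in knockout Jak1_43196. In Jak1_43196, Lalba and Wfdc18 lay above their table mean on the log2 scale (0.54 and 0.26) and Glycam1 below it (−0.08). Mfge8 lay above its mean there (0.37), and Btn1a1 and Xdh below theirs (−0.11 and −0.22). The part of transcript length in the spread of these genes was not tested.

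**Figure D4:**
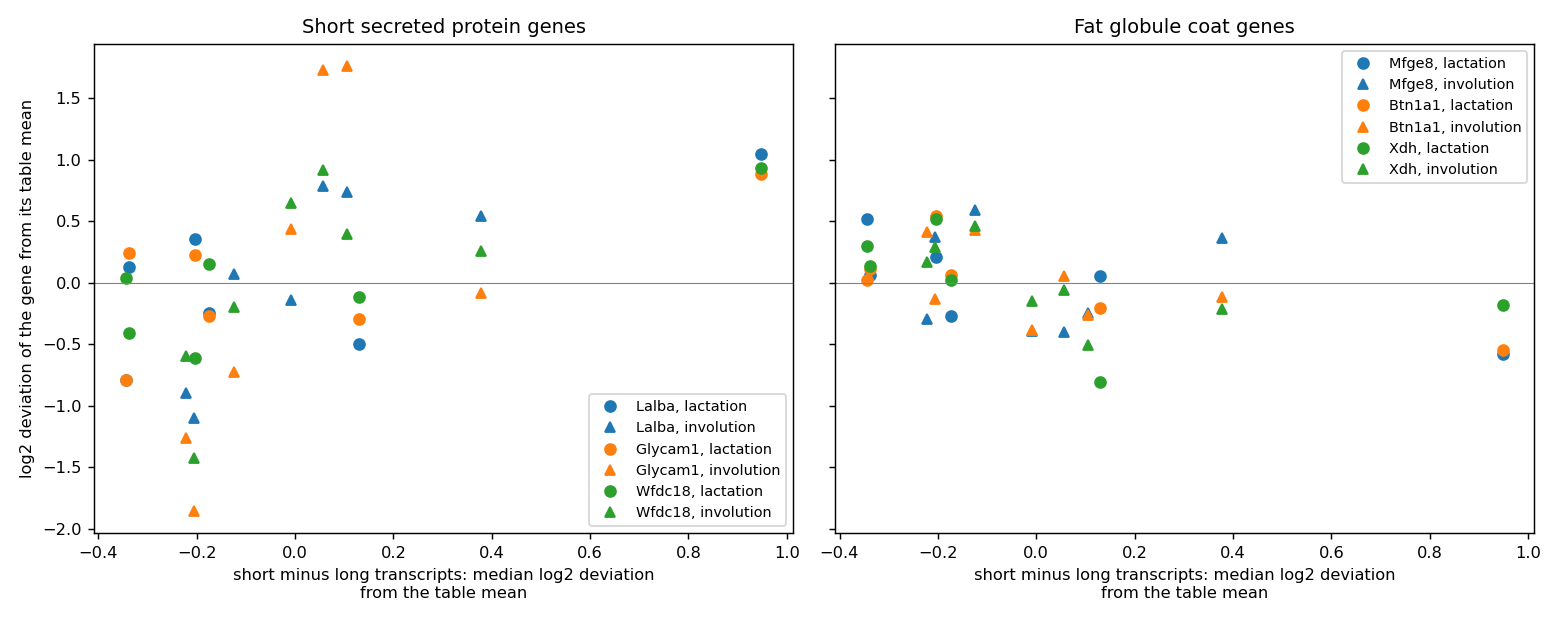
Log2 deviation of each gene from its table mean against the library's median shift of short over long transcripts (both log2), with circles for lactation and triangles for involution libraries. Control Jak1_44175, at 0.95 on the horizontal axis, has Lalba, Glycam1 and Wfdc18 raised together and Mfge8, Btn1a1 and Xdh lowered.

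By the same centred values, the genes whose pattern was most like that of Lalba over 13 libraries were Gng5 (r = 0.929), Smpdl3a (0.911) and Cr1l (0.900). For Btn1a1 they were Arfip1 (0.920), Il17ra (0.902) and Nfib (0.898), and for Lpo they were Slc35f6 (0.880), Srxn1 (0.872) and Ssr1 (0.864). They were the highest of 7723 genes for Lalba and Btn1a1 and of 7724 for Lpo, and are descriptions with no test.

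Other genes of milk were counted from wider lists. Of 20 further milk proteins of defence, binding and digestion, 18 were tested at lactation and 0 passed, against 0.0105% of all genes, with 8 positive and 10 negative. At involution Trf, transferrin, was listed at 0 in all 3 controls, with 2293 to 7718 FPKM in the knockouts. Its zeros may be missing estimates like those of the caseins, so it was left out. Of the other 19 genes 9 were positive and 10 negative, with 1 past the threshold, against 0.0719% of all genes. The list was chosen with earlier results of these data known, so this count does not measure an excess in it. Spp1, osteopontin, fell from 8896 ± 3493 FPKM in controls (n = 3) to 263 ± 220 FPKM in knockouts (n = 4), a log2 difference of −5.29 ± 0.61 (adjusted p = 0.0363, limma), lower in 4 of 4 knockouts. The call was lost in 7 of 16 alternatives, with no filter (adjusted p = 0.156), without any 1 control (0.156 to 0.189) and without knockout Jak1_43767, Jak1_44176 or Jak1_44440 (0.0757 to 0.0849), and the difference kept to −5.79 to −4.94. Saa3, an acute-phase protein, was at 445 ± 115 FPKM in controls and 36.5 ± 18.8 FPKM in knockouts (adjusted p = 0.0514, limma, and past the threshold in 5 of 16 alternatives), and Lcn2, lipocalin 2, at 10085 ± 3172 FPKM and 3694 ± 1353 FPKM (adjusted p = 0.452). At lactation Spp1 went the other way, with 548 ± 98.7 FPKM in controls and 1449 ± 827 FPKM in knockouts. Its log2 difference there was 1.34 ± 0.46 (unadjusted p = 0.0199, adjusted p = 0.998, limma). Every lactating knockout lay above every lactating control for Spp1, as for 2.89% of all genes.

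Among 17 further fat globule coat genes, 0 passed at either stage, against 0.0105% of all genes at lactation and 0.0719% at involution. At lactation 8 were positive and 9 negative, and at involution 10 and 7, with a median log2 difference of 0.02. The largest involution differences were those of Muc1, a membrane mucin, at −0.56, Anxa5, a phosphatidylserine-binding annexin, at 0.50, Cidea, a lipid droplet protein, at 0.42 and Folr1, a folate receptor, at −0.37.

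Markers of the cell types in the gland were summed in the same libraries. In bulk tissue, fewer cells of a type and less RNA per cell cannot be told apart. The summed FPKM of 12 luminal markers was 772 to 888 in the lactating controls and 641 to 740 in the lactating knockouts, which did not overlap. At involution the luminal sums were 2174 to 2869 and 1883 to 3166, which did. Of 11 luminal markers tested at lactation, 4 were positive and 7 negative, with a median log2 difference of −0.11 and none past the threshold. For single genes at lactation, every knockout lay below every control in 3.17% of those tested. All 11 adipocyte markers had positive knockout differences at both stages, with median log2 differences of 0.77 and 0.64, and their sums were 901 to 2822 and 1557 to 2352 FPKM at lactation and 4351 to 8705 and 4745 to 17023 FPKM at involution. The sum of 10 basal epithelial markers was 372 to 654 FPKM in involuting controls and 704 to 771 FPKM in involuting knockouts, with no overlap. Of these 10 markers 9 were positive and 1 negative, and 0 passed the threshold. Acta2 (96.6 to 185 and 105 to 228 FPKM) and Tagln (120 to 233 and 145 to 270 FPKM), the highest of them, overlapped between the genotypes. For single genes at involution, every knockout lay above every control in 2.67% of those tested. The sum of 8 endothelial markers was 26.5 to 29.6 FPKM in lactating controls and 37.3 to 52.1 FPKM in lactating knockouts, with no overlap, and all 7 tested had positive differences. The share of single genes with every knockout above every control at lactation was 2.89%. At involution the endothelial sums overlapped, and 5 of 8 markers were positive. Macrophage sums overlapped at both stages, with 5 of 6 tested markers positive at lactation and 10 of 11 at involution. Of 8 fibroblast markers, 7 were positive at lactation and 8 at involution, with median log2 differences of 0.71 and 0.79. The part of these cells in the Lpo, Cel and Csn3 differences was not tested.

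Sources of a member outside the epithelium were also read. Glycam1 is made by high endothelial venules of lymph nodes, and the lymph node and venule markers summed to 0.776 to 2.93 FPKM in the lactation libraries other than control Jak1_43768, where they came to 41.3 FPKM. At involution they summed to 5.30 to 11.0 FPKM. Ccl21a and Ccl19 were at 0 in all 13 libraries. Cel is also an enzyme of the exocrine pancreas, whose 8 markers summed to 0.316 to 7.04 FPKM per library, with Prss1, Amy2a5, Ctrb1 and Cpb1 at 0 in all 13 libraries.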

How the data were processed

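RNA of 13 mammary gland libraries was sequenced, and the authors deposited FPKM values in 1 table per stage. CASAVA, cutadapt, TopHat and build mm9 are named in the submitters' processing notes, and neither these notes nor the file headers give the FPKM program, its annotation or its scaling. Depth is therefore unknown, and no interval for counting error was computed.

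Each table was rescaled by median-of-ratios factors, and genes reaching 1 FPKM as deposited in 3 or more libraries were kept. The log2(rescaled FPKM + 1) values were tested with limma 3.58.1 in R 4.3.3 (lmFit, eBayes with trend, two-sided, Benjamini-Hochberg over all genes tested, threshold 0.05). Fold changes on this scale understate those of low genes such as Lpo. The difference between stages was an interaction term in a fit of all 13 libraries, in which Csn3 and Csn1s2a were left out. Genes listed at 0 throughout a group, Csn1s2a and Trf among them, entered the fits and the background shares, and no test of these 2 is given. Replicates within a stage carry separate mouse numbers and no batch is labelled. The fits were tested on simulated data.

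The members and lists were chosen with earlier results of these data known. All members were named. Of the other milk lists, each gene past the threshold and the 4 with the largest absolute difference at involution were named. Transcript lengths came from GENCODE M21 (found for 92.2% of genes) and upstream sequences from RefSeq (GRCm38.p6). No mm9 coordinate was used. Alternatives were other scalings, a pseudocount of 0.1, no filter, array weights, robust fits, a joint fit, a block on mouse number and each library left out. Levels relative to the upper quartile and the mix of 8 genes were added after seeing the data.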

Additional observations from a re-analysis of the deposited data

Results flagged for a closer look

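Among the 4 involuting knockouts, Mfge8 in knockout Jak1_43196 stood apart at 6187 FPKM, against 3642 to 4038 FPKM in the other 3 libraries. The gap to the nearest library was 0.844 of the group's range, above the 95% critical value of Dixon's test for a group of this size. Of the 9 genes with a range in this group Mfge8 alone passed, and chance marks about 1 in 20 groups.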

How the results depend on the processing

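Leaving Csn1s2a aside, no member changed its side of the threshold under any alternative run. The medians over the members moved by less than the spread between replicates, although that at lactation turned positive in 3 alternatives, up to 0.21. At involution the median put to the alternatives, and its spread, took in Csn1s2a where that gene was kept. The median over the other 9 genes was not rerun. The number of genes called moved over the whole table, and the cause was not tested except where fewer genes or libraries entered. At lactation the count was 1, and it was 2 with total scaling, with a pseudocount of 0.1 and in a joint fit of 13 libraries, 9 with array weights, 0 without genes listed at 0 in a whole group and short RNA, and 0 to 3 with each library left out. At involution the count was 9, and it was 14 with total scaling and with robust fits, 20 with array weights, 27 in the joint fit, 3 without the genes listed at 0 and 2 to 9 with each library left out, the lowest without control Jak1_44448. For the difference between stages it was 10, and 1 without the genes listed at 0, 16 with array weights, 6 to 12 with each library left out and 20 with mouse number as a replicate block.

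Signs of lactation differences turned to positive for Wfdc18 (0.36), Mfge8 (0.23) and Btn1a1 (0.19) under quantile normalization, for Mfge8 (0.12), Btn1a1 (0.20) and Glycam1 (0.0026) under total scaling, and for Wfdc18 (0.35) with array weights. Between stages, Xdh turned to −0.084 (quantile) and −0.19 (total), and Btn1a1 to 0.18 (array weights) and 0.071 (replicate block). With each library left out, lactation differences spanned −0.90 to 0.020 for Lalba, −0.66 to 0.18 for Glycam1, −0.61 to 0.17 for Wfdc18, −0.41 to 0.14 for Mfge8 and −0.29 to 0.25 for Btn1a1. Involution differences spanned −0.37 to 0.57 for Lalba, −0.28 to 1.499 for Glycam1 and −0.18 to 0.98 for Wfdc18. The stage differences spanned −0.069 to 1.71 for Glycam1, −0.54 to 0.072 for Mfge8, −0.45 to 0.083 for Btn1a1 and −0.27 to 0.20 for Xdh. Low FPKM limits Lpo, whose involution values lie near the filter.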

Other observations

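In FPKM, 2 other lipid droplet coat genes, chosen here after their values were seen, stood apart between the stages in opposite directions. Cidea was at 1767 ± 135 FPKM in lactating controls and 1368 ± 122 FPKM in lactating knockouts (SD, n = 3 each), and at 259 ± 55.8 FPKM (n = 3) and 350 ± 119 FPKM (n = 4) at involution. Plin2, perilipin 2, was at 560 ± 137 FPKM and 496 ± 34.2 FPKM at lactation and 1255 ± 135 FPKM and 1189 ± 207 FPKM at involution. The upper quartile of FPKM was also higher at involution, 8.61 to 9.07 against 3.06 to 3.21. The higher Plin2 level is therefore a statement in FPKM only, and Plin2 was not read relative to the upper quartile. The order of these 2 genes was thus Cidea above Plin2 in every group at lactation and Plin2 above Cidea at involution, a comparison within libraries that a table's scaling does not touch.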
